A study of Mus musculus with 12 samples.

Results

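The genes described here encode collagens, laminins and other proteins of the basement membrane, the thin sheet of matrix on which brain vessels and the endfeet of astrocytes rest. They were chosen by symbol, as protein-coding genes named as a collagen alpha chain, as a laminin alpha, beta or gamma chain, or as Nid1, Nid2, Hspg2, Agrn or Fn1, with at least 10 counts in 3 or more of the 12 libraries. Among 48709 genes, 60 had such a name and 57 reached the minimum. The 3 below it were Col10a1, Col19a1 and Col24a1, which had at most 5 counts in a library. Just inside it lay Col6a6 and Col28a1, with 10 counts or more in 5 and 6 libraries. Of the 57 genes 46 reached 10 counts in all 12 libraries, none reached the minimum through 1 group alone, and all 57 passed the filter of the test.

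RNA came from ACSA-2+ astrocytes (ACSA-2 is a surface antigen of astrocytes) of C57BL/6 mice of postnatal day 90 to 120, 24 h after transient middle cerebral artery occlusion (tMCAO), a stroke model. Every mouse carried 2 floxed copies of the targeted gene and Gfap-CreERT2+/-, a recombinase under the Gfap promoter that tamoxifen activates. Mice 296, 297 and 474 had corn oil and are labelled wild-type (WT), and mice 295, 298 and 300 had tamoxifen and are labelled knockout (KO). Each mouse gave 1 library from the occluded side (ipsilateral) and 1 from the other (contralateral), which makes 4 groups of 3. The 2 libraries of a mouse are called by its number and side. Tamoxifen and the deletion cannot be told apart, no mouse was without Cre, no group was without an occlusion, and a Gfap promoter drives Cre only in cells that use it.

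Basement membranes are built from independent networks. Laminins are trimers of an alpha, a beta and a gamma chain that polymerise at the cell surface, type IV collagen forms a second covalent network, and nidogens and the heparan sulfate proteoglycan perlecan link them. In the brain, astrocytes, endothelial cells, pericytes and perivascular fibroblasts contribute different chains to the membranes around vessels, and collagens that form fibrils belong mostly to the meninges and to large vessels.

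Total counts were 11187723 to 15780600 per library. The labels do not say which part of the targeted gene is floxed, so the KO labels were not verified, and every genotype direction below is only between libraries labelled KO and WT. Astrocyte markers summed to 10643 to 29260 CPM (counts scaled to library size by the trimmed mean of M values) over 12 genes. Markers of other cells were present too, with 2188 to 3765 CPM for 16 endothelial genes, 670 to 1542 for 10 pericyte genes, 194 to 569 for 11 fibroblast genes and 5604 to 23422 for 9 oligodendrocyte genes, and no marker was at 0 in all libraries. In such bulk samples fewer cells of a type and less RNA per cell cannot be told apart.

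The 6 type IV collagen genes lie in head-to-head pairs, each pair read in opposite directions from a shared promoter region. The starts of Col4a1 and Col4a2 overlap, those of Col4a3 and Col4a4 lie 72 bases apart on chromosome 1, and those of Col4a5 and Col4a6 lie 1309 bases apart on chromosome X. The first sequence below shows the Col4a1 and Col4a2 overlap (chr8:11312801-11312830, plus strand), with the 22 bases common to both transcripts in capitals. The others are bases just before the start, free of annotated exons, of RefSeq transcripts of Hspg2 (chr4:137468553-137468768, plus strand), Agrn (chr4:156197489-156197738, minus strand) and Col11a2 (chr17:34038888-34039137, plus strand), of which the Hspg2 one ends 34 bases before its start because the bases between are annotated as exon. They are shown because the basement membrane proteoglycans Hspg2 and Agrn moved in opposite directions after the occlusion and Col11a2 had the largest fall that passed the test. Capitals in these mark GC boxes (GGGCGG on either strand) and, in Col11a2, 1 TATA box (TATAAA). The gene model used for positions further on has the start of Col11a2 downstream of the RefSeq one. All are from RefSeq, build GRCm38.p6, 5′ to 3′.
Col4a1/Col4a2: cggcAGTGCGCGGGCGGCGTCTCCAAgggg
Hspg2: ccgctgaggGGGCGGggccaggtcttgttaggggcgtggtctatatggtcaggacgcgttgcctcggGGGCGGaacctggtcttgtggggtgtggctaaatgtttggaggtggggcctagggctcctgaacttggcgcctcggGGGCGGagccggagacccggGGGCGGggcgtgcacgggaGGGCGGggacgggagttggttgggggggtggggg
Agrn: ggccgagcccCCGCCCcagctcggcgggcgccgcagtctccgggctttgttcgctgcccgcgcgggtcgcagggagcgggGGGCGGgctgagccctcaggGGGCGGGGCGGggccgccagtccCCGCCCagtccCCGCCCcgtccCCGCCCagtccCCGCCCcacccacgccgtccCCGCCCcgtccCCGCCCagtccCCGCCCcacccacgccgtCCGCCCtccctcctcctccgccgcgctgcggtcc
Col11a2: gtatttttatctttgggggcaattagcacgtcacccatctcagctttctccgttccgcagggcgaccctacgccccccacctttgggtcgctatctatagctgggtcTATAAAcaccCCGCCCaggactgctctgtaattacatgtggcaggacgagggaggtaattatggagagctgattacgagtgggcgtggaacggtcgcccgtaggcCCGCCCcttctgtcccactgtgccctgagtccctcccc

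The Hspg2 stretch holds 5 GC boxes, the Agrn stretch 12 and the Col11a2 stretch 2, counting matches on both strands that may overlap by a base. Agrn has a second RefSeq start, not shown, whose preceding 250 bases (chr4:156186260-156186509, minus strand) hold 2. RefSeq windows of 300 bases (250 before and 50 after a start) were matched to 40 of the 57 genes, 45 windows in all. A GC box was in 30 of these 45 windows and in 35.7% of all 32851 windows. CCAAT was in 15 of the 45 and 37.4% of all, TATAAA in 4 and 13.6%, and TGANTCA, the letters of an AP-1 site, in 1 and 7.81%. These are matches of letters only, searched on both strands.

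Levels between genes were compared in the deposited TPM (a transcript abundance that allows for gene length), as in the plot of TPM by gene. Together the 57 genes took 0.302 to 0.505% of the counts of a library. Mean TPM over the 12 libraries was at least 1 in 51 genes, at least 10 in 29 and at least 100 in 5. The 5 highest were Col4a1 (182), Fn1 (180.3), Lamb2 (153), Agrn (146) and Col4a2 (145), and their libraries overlapped: Col4a1 ranged over 64 to 299 TPM and Lamb2 over 104 to 232. Among laminin chains Lamb2 was followed by Lamc1 (76.6) and Lama5 (62.8), while Lama1 and Lamb3, chains of pial or epithelial membranes, had 1.48 and 1.15. Of the collagens outside type IV, Col5a3 (67.4), Col9a3 (65.1), Col16a1 (61.8) and Col8a2 (59) had more TPM than the type I chains Col1a1 (18.4) and Col1a2 (18.1), the main collagens of skin and bone. At the low end stood Col6a6, with a mean of 0.312 TPM.

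**Figure D1:**
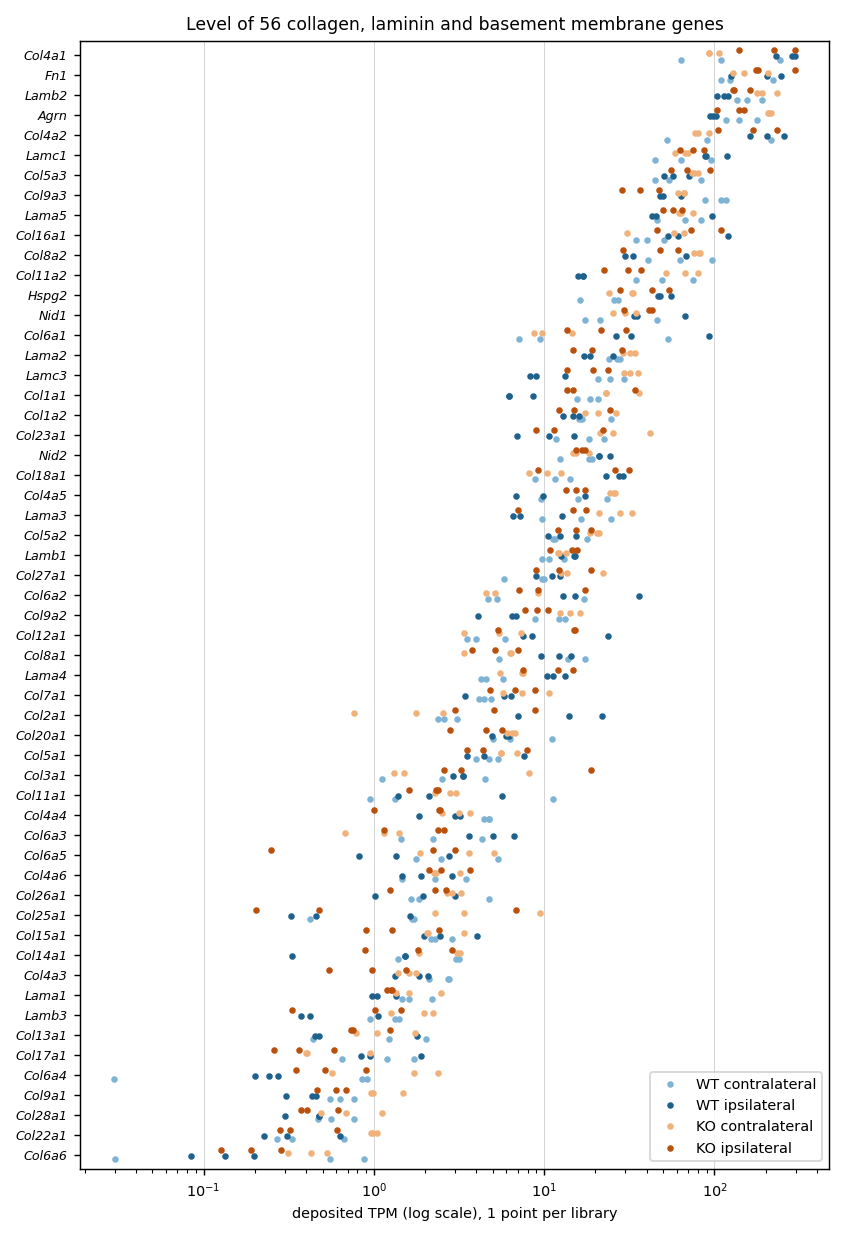
Deposited TPM (log scale) of 56 of the 57 genes, 1 point per library coloured by group, ordered by mean. Col4a1, Fn1, Lamb2, Agrn and Col4a2 lie above 100 on average, and the points of 1 gene often spread over more than the step to the next gene.

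The first comparison asks how the occlusion changed these genes in mice labelled WT. In the ipsilateral hemisphere the perlecan gene Hspg2, the laminin chain Lama4 and the type II collagen Col2a1 rose, and Lamb2, Lamc3, Agrn, Col1a1, Col11a2, Col9a2 and Col9a3 fell. That is 10 of 57 genes, 17.5%, at an adjusted p under 0.05 (edgeR, adjusted over all 15571 genes tested), where 19.2% of all genes tested were called. By direction 3 rose and 7 fell, against 9.61% higher and 9.54% lower among all genes. The median log2 fold change was -0.25, against -0.06 over all genes. Ipsilateral and contralateral libraries did not overlap in 21 of the 57 genes (36.8%, and 34.0% of all genes), with 7 higher (17.3% of all) and 14 lower (16.6%). With the mouse as a block, which compares the sides within an animal, 23 were called, 12 higher and 11 lower (29.8% of all genes, 14.7% higher and 15.1% lower). Dropping each library and each mouse in turn gave 18 leave-out fits. The number called was 20 without library 296 contralateral (23.2% of all genes tested in that fit), 16 without mouse 296 (21.0%), 5 without mouse 474 (7.86%) and 3 without mouse 297 (4.33%).

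In mice labelled KO the same comparison called 3 of 57 genes, 5.26%, where 6.29% of all genes were called. Col2a1 rose (5.45% of all genes did), and Col11a2 and Col9a3 fell (0.841% did). Each of the 3 was also called, in the same direction, in WT mice. The median was -0.22, against -0.01 over all genes, and the libraries did not overlap in 16 genes (28.1%, and 38.8% of all genes), 4 higher (18.6% of all) and 12 lower (20.2%). With the mouse as a block 16 were called, 11 higher and 5 lower (16.0% of all genes, 10.9% higher and 5.10% lower). Single libraries decided the unblocked count. It was 0 without any 1 of the KO libraries other than 298 ipsilateral, without library 297 contralateral or 474 ipsilateral, or without mouse 295, 297 or 300, fits that called 0.0128 to 5.84% of all genes. Without library 298 ipsilateral it was 11 (14.9% of all genes), without 296 contralateral 6 (8.49%), without 297 ipsilateral 1 (5.54%), without mouse 296 9 (12%) and without mouse 474 2 (4.97%).

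Taking each mouse by itself, 13 of the 57 genes were higher ipsilaterally in 6 of 6 mice and 16 were lower in 6 of 6, against 19.0% and 19.5% of all genes tested. The 13 were Col4a1, Col4a2, Lama4, Lamc1, Nid1, Hspg2, Col18a1, Col6a1, Col6a2, Col6a3, Col2a1, Col12a1 and Col16a1. The 16 were Agrn, Lama2, Lama3, Lamb2, Lamb3, Lamc3, Col4a5, Col6a5, Col1a1, Col1a2, Col11a2, Col8a2, Col28a1 and all 3 type IX chains.

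**Figure D2:**
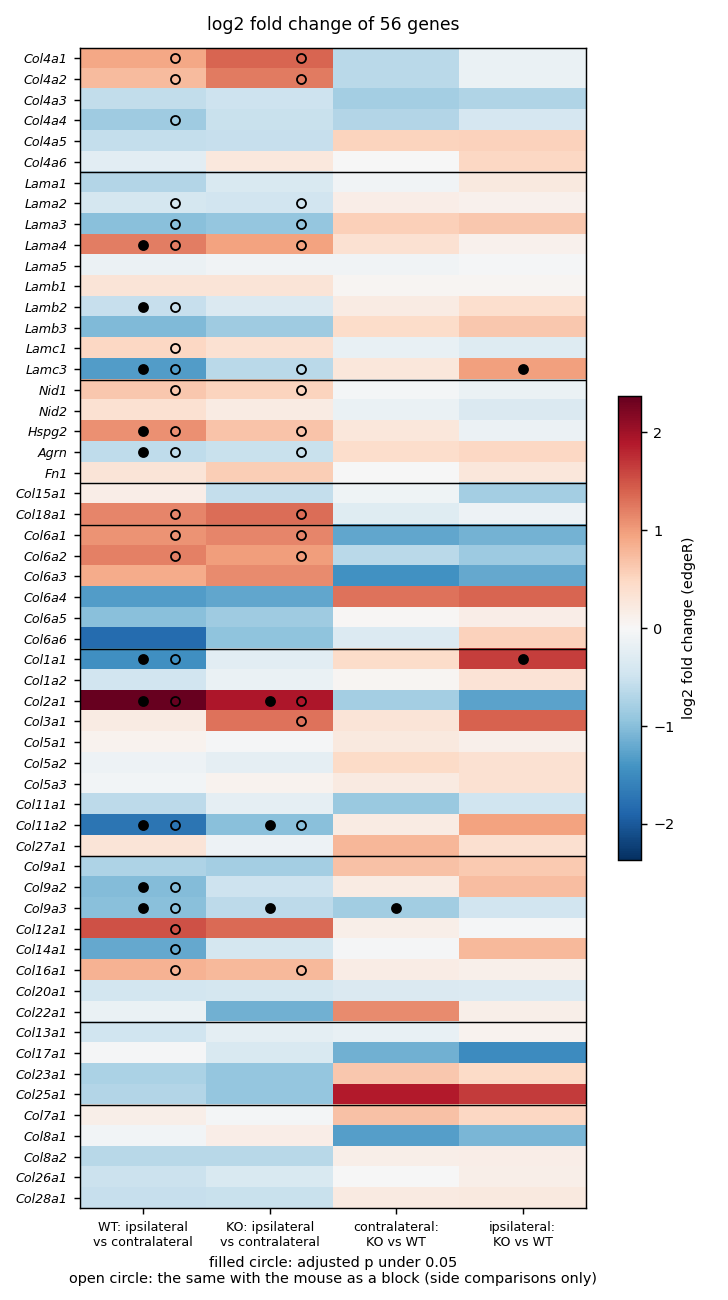
Log2 fold change of 56 of the 57 genes (rows, grouped by role) in the 4 comparisons, red higher and blue lower. Filled circles mark an adjusted p under 0.05 in edgeR, open circles the same with the mouse as a block, which applies to the 2 comparisons of sides only. Filled circles number 10, 3, 1 and 2 from left to right.

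Below, the values of a group are CPM in the order of mice 296, 297 and 474 (WT) and 295, 298 and 300 (KO), a change is a log2 fold change ± SE, and every p is an edgeR quasi-likelihood p adjusted by Benjamini-Hochberg. Where 2 sets of values are joined by against, contralateral stand before ipsilateral ones. With the mouse as a block is written blocked.

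The type IV chains Col4a1 (ENSMUSG00000031502, chromosome 8, 11198423 to 11312826, mm10) and Col4a2 (ENSMUSG00000031503, chromosome 8, 11312805 to 11449287) form the network of all vascular basement membranes. Col4a1 stood at 532, 226 and 144 CPM in WT contralateral and 629, 613 and 462 in WT ipsilateral libraries. KO mice had 185, 184 and 212 contralaterally and 463, 293 and 763 ipsilaterally. Library 296 contralateral was as high as ipsilateral ones, so the WT groups overlapped, while the KO groups did not. The change was 0.92 ± 0.42 in WT (adjusted p = 0.148; blocked 1.12 ± 0.31, adjusted p = 0.0298) and 1.39 ± 0.43 in KO mice (0.074; blocked 1.28 ± 0.31, 0.0326). Without library 296 contralateral the WT value was 1.62 (adjusted p = 0.00921).

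Col4a2 stood at 446, 179 and 113 against 514, 419 and 311 CPM in WT and 146, 151 and 177 against 335, 209.5 and 567 in KO mice. Its changes were 0.75 ± 0.45 (adjusted p = 0.262; blocked 0.0385) and 1.23 ± 0.46 (0.119; blocked 0.0384), and without library 296 contralateral the WT value was 1.51 (adjusted p = 0.0167). The ratio of Col4a2 to Col4a1 in TPM, chosen like each ratio of 2 genes below after the values were seen and given without a test, stayed between 0.706 and 0.879 in the 12 libraries while Col4a1 ranged over 64 to 299 TPM and Col4a2 over 52.6 to 255, and the ratio was lower ipsilaterally in 6 of 6 mice.

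The other 4 type IV chains had values below 0 in WT mice. The chains best known from the kidney glomerulus, Col4a3 and Col4a4, lay lower ipsilaterally in WT mice without overlap. Col4a3 stood at 8.7, 8.02 and 6.86 against 5.59, 4.11 and 6.0 CPM in WT and 3.93, 4.56 and 5.04 against 2.89, 4.64 and 2.01 in KO mice. Col4a4 stood at 14.8, 15 and 16.3 against 10.3, 6.04 and 9.25 in WT and 7.61, 11 and 9.64 against 7.78, 7.74 and 3.92 in KO mice. Neither passed in WT (Col4a3 -0.58 ± 0.29, adjusted p = 0.18; Col4a4 -0.85 ± 0.28, 0.0523), though Col4a4 passed when blocked (0.0336). Col4a5, their usual partner, stood at 20.4, 46.8 and 34.3 against 14, 20.5 and 33.9 CPM in WT and 49.1, 49.5 and 47 against 30.7, 35.4 and 33.4 in KO mice, lower ipsilaterally in 6 of 6 mice (-0.57 ± 0.31, adjusted p = 0.218, and -0.55 ± 0.31, 0.27). Col4a6 stood at 5.74, 8.18 and 3.8 against 3.55, 4.67 and 6.63 in WT and 5.15, 7.28 and 5.29 against 8.74, 5.07 and 7.26 in KO mice, with groups that overlapped.

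Among laminin alpha chains Lama4 (ENSMUSG00000019846, chromosome 10, 38965515 to 39110188), the chain of endothelial and pericyte laminin, rose. It stood at 16.3, 20.4 and 17.9 CPM in WT contralateral and 48.8, 39 and 39.5 in WT ipsilateral libraries, which do not overlap (1.22 ± 0.26, adjusted p = 0.0093). The KO values were 25.6, 18.9 and 26 against 43.3, 27.4 and 65.3 CPM (0.95 ± 0.26, adjusted p = 0.053; blocked 0.0186). The WT call was lost without mouse 297 (adjusted p = 0.0586) or 474 (0.0552).

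Lama2, an alpha chain of astrocyte endfeet and of the perivascular membrane, had values on the other side of 0. It stood at 144, 129 and 127 against 126, 87.7 and 88.1 CPM in WT and 135, 158 and 150.3 against 93.7, 141 and 88.3 in KO mice, lower ipsilaterally in every mouse. It did not pass (-0.41 ± 0.19, adjusted p = 0.158, and -0.46 ± 0.19, 0.161), except when blocked (0.0433 and 0.0439). Lama3, a chain of epithelial laminin, stood at 33, 78.6 and 57.5 against 21.6, 24 and 39.7 CPM in WT and 85.5, 99.8 and 65 against 47.5, 57.1 and 27.8 in KO mice. It too was lower ipsilaterally in every mouse (-0.99 ± 0.35, adjusted p = 0.0659, blocked 0.0153; -0.92 ± 0.34, 0.122, blocked 0.0267). The ratio of Lama4 to Lama2 in TPM was 0.152, 0.214 and 0.191 in WT contralateral and 0.524, 0.602 and 0.606 in WT ipsilateral libraries. KO libraries stood at 0.256, 0.162 and 0.234 against 0.626, 0.263 and 1.0, a direction that the choice of these 2 genes fixes.

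Lama5, the other vascular alpha chain, did not pass in either genotype and its groups overlapped. It stood at 300.5, 226 and 170.3 against 335, 160.2 and 141 CPM in WT and 208, 201 and 246 against 219, 196 and 208 in KO mice. Lama1, the chain of the pial membrane, stood at 6.61, 4.52 and 4.55 against 3.94, 2.9 and 2.89 in WT and 6.71, 4.34 and 3.72 against 3.63, 3.45 and 4.39 in KO mice (-0.69 ± 0.29 in WT, adjusted p = 0.119).

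Of the beta chains Lamb2 (ENSMUSG00000052911, chromosome 9, 108479736 to 108490530) fell in WT mice. It stood at 296, 341 and 269 CPM contralaterally and 222, 196 and 202 ipsilaterally, without overlap (-0.55 ± 0.15, adjusted p = 0.026). KO mice had 330.0, 307 and 406 against 296, 239 and 287 CPM, also without overlap (-0.34 ± 0.15, adjusted p = 0.173). The WT call was lost in 7 of 18 leave-out fits. These left out library 297 contralateral (adjusted p = 0.0977), 297 ipsilateral (0.0923) or 474 ipsilateral (0.0595), or mice 295 (0.0617), 296 (0.0505), 297 (0.231) and 474 (0.0736). Lamb2 also missed the threshold in a fit of only these 2 groups (adjusted p = 0.0714) and in limma fits of log2(TPM + 1) or log2(TPM + 0.1) (0.0524 and 0.0520).

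Lamb1 stood at 33.2, 38.7 and 31.3 against 45.8, 39 and 43.3 CPM in WT and 37.9, 34 and 35.1 against 42.9, 32.3 and 56.8 in KO mice, and did not pass (0.31 ± 0.18, adjusted p = 0.252, and 0.30 ± 0.18, 0.303). Lamb1 and Lamb2 take the same place in a laminin trimer. The ratio of Lamb2 to Lamb1 in TPM was 14.5, 14.4 and 14 in WT contralateral and 7.91, 8.2 and 7.6 in WT ipsilateral libraries. The KO values were 14.2, 14.7 and 18.9 against 11.2, 12.1 and 8.22, lower ipsilaterally in 6 of 6 mice. Lamb3, a chain of skin laminin, stood at 1.65, 2.3 and 2.4 against 0.709, 0.644 and 1.69 CPM in WT and 3.52, 3.09 and 2.02 against 2.37, 1.69 and 0.669 in KO mice and did not pass.

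Lamc3 (ENSMUSG00000026840, chromosome 2, 31887291 to 31946539), a gamma chain found in the membranes of brain vessels and pia, fell in WT mice. It stood at 46.7, 52.9 and 40.8 CPM in WT contralateral and 24.6, 15.6 and 15.8 in WT ipsilateral libraries (-1.33 ± 0.20, adjusted p = 0.00198). The groups were apart and each of the 18 leave-out fits called it. KO libraries stood at 55.9, 51 and 62.5 against 43.2, 35.6 and 30.6 CPM, again apart (-0.63 ± 0.19, adjusted p = 0.074; blocked 0.0449). A gene annotated on the other strand covers 6.27% of its exon bases, and no source used here says whether counting used strand.

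Lamc1, the common gamma chain, stood at 249, 156 and 120.5 against 299, 228 and 209.8 CPM in WT and 158, 138 and 167 against 214, 158 and 227 in KO mice. It was higher ipsilaterally in every mouse, and passed in WT only when blocked (0.49 ± 0.25, adjusted p = 0.186, blocked 0.0148) or without mouse 296 (adjusted p = 0.0332) or library 296 contralateral (0.0176). The TPM ratio of Lamc3 to Lamc1 went from 0.254, 0.461 and 0.46 to 0.112, 0.0929 and 0.102 in WT and from 0.48, 0.501 and 0.507 to 0.274, 0.306 and 0.183 in KO mice.

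Hspg2 (ENSMUSG00000028763, chromosome 4, 137468769 to 137570630) encodes perlecan, a heparan sulfate proteoglycan that binds laminin, type IV collagen and growth factors. It stood at 116, 115 and 75.5 CPM in WT contralateral and 244, 206 and 199.7 in WT ipsilateral libraries, all apart (1.08 ± 0.28, adjusted p = 0.0198). KO mice had 134, 97.3 and 138 against 183, 120.0 and 284 CPM (0.67 ± 0.28, adjusted p = 0.154; blocked 0.0418), with library 298 ipsilateral inside the contralateral range. Hspg2 missed the threshold in WT without library 297 ipsilateral (adjusted p = 0.0505), library 474 contralateral (0.0635), or mouse 297 (0.0949) or 474 (0.0989).

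Agrn (ENSMUSG00000041936, chromosome 4, 156165290 to 156197488) encodes agrin, the proteoglycan that in the brain is concentrated at astrocyte endfeet and binds dystroglycan. It stood at 344, 492 and 419.6 CPM in WT contralateral and 289.6, 283 and 252 in WT ipsilateral libraries (-0.61 ± 0.15, adjusted p = 0.0158), and at 551, 543 and 575 against 388, 419.6 and 356 in KO mice (-0.52 ± 0.15, adjusted p = 0.0567; blocked 0.0402). The sides were apart in both genotypes. Agrn missed the threshold in WT without library 297 contralateral (adjusted p = 0.0653) or 474 contralateral (0.0595), or without mouse 297 (0.133) or 474 (0.098), and in a fit of only these 2 groups (0.0828). The ratio of Hspg2 to Agrn in TPM was 0.219, 0.151 and 0.117 in WT contralateral and 0.546, 0.474 and 0.514 in WT ipsilateral libraries. The KO values were 0.158, 0.116 and 0.155 against 0.307, 0.186 and 0.518, again a direction that the choice of genes fixes.

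The nidogens link laminin to type IV collagen. Nid1 stood at 87.1, 38.1 and 33.9 against 124, 65.9 and 59.1 CPM in WT and 59.6, 43.4 and 51.8 against 77.8, 53.4 and 90.8 in KO mice. It was higher ipsilaterally in every mouse, both libraries of mouse 296 were high, and it passed in some fits only (0.65 ± 0.37, adjusted p = 0.238, blocked 0.00502, and 0.0212 without library 296 contralateral; in KO mice 0.52 ± 0.37, 0.381, blocked 0.0335). Nid2 stood at 19.1, 27.6 and 29.1 against 36.4, 32.1 and 29.6 CPM in WT and 25.7, 20.4 and 21.6 against 25.3, 24.7 and 27.8 in KO mice and did not pass. The opposite-strand gene Rtraf covers 8.45% of its exon bases. Fn1, fibronectin, an adhesive protein also carried in plasma, stood at 458, 765 and 413 against 443, 889 and 686 CPM in WT and 500.0, 425 and 698 against 1036, 637 and 759.8 in KO mice, and did not pass (0.30 ± 0.31, adjusted p = 0.524, and 0.58 ± 0.31, 0.25).

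**Figure D3:**
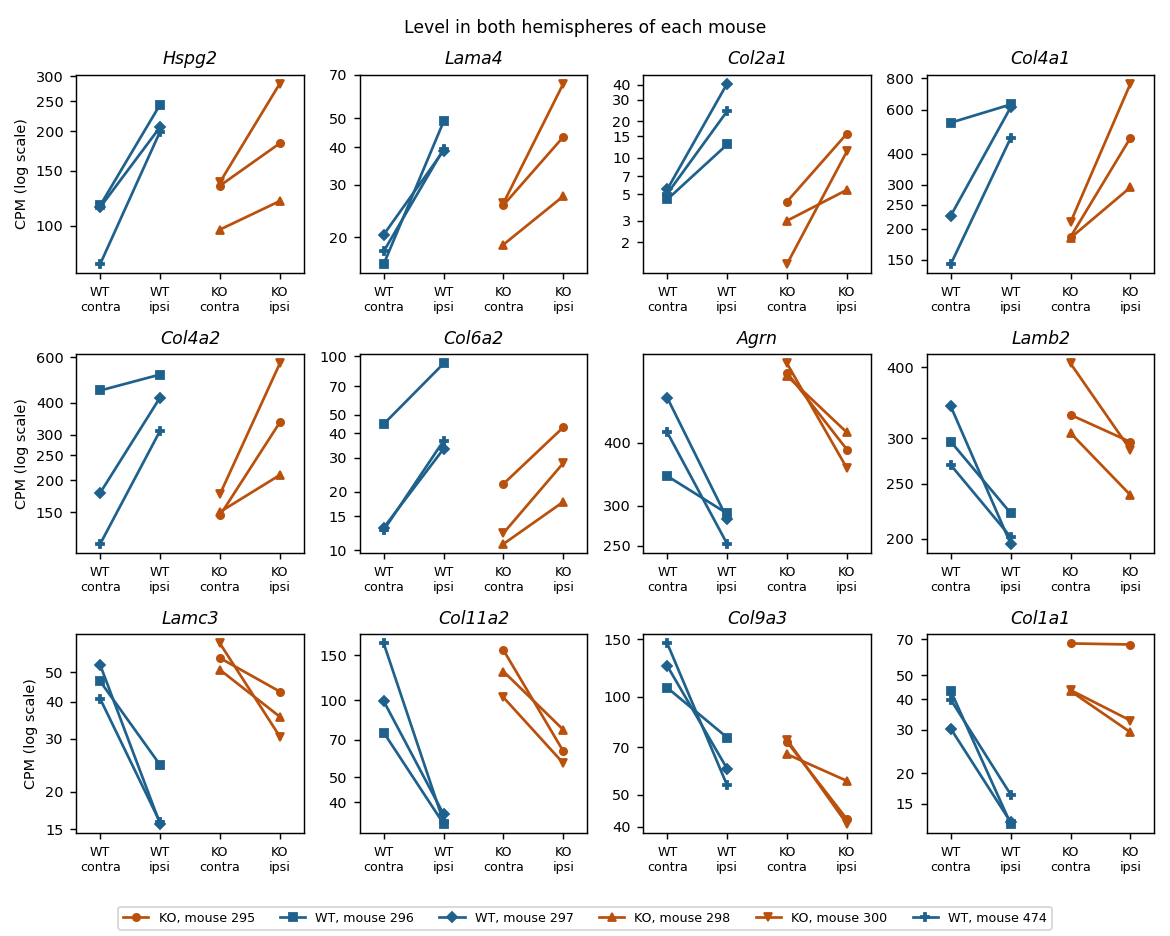
CPM (log scale) of 12 genes in the contralateral and ipsilateral library of each mouse, joined by a line, WT in blue and KO in orange. Lines of the first 6 genes rise and those of the last 6 fall in 6 of 6 mice. Mouse 296 starts high in Col4a1, Col4a2 and Col6a2.

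Of the collagens related to vascular membranes, Col18a1, which carries endostatin, was higher ipsilaterally in every mouse. It went from 25.1 ± 4.71 to 56.2 ± 8.24 CPM (SD, n = 3 each) in WT and from 20.7 ± 4.43 to 51.9 ± 31.3 in KO mice. It passed when blocked (1.17 ± 0.27, adjusted p = 0.0148, and 1.14 ± 0.27, 0.0324) and just missed in the unblocked edgeR fit of all 12 libraries (0.0552 and 0.0642). Of 11 other settings, the blocked one among them, 3 called Col18a1 in WT and 2 in KO mice. Of 18 leave-out fits 4 and 2 did. Col15a1, the other collagen of its class, did not pass.

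Type VI collagen forms beaded filaments next to basement membranes, from Col6a1, Col6a2 and 1 further chain. Both Col6a1 and Col6a2 were higher ipsilaterally in every mouse. Col6a1 stood at 74.2, 12.3 and 10.1 against 124, 35.9 and 40.9 CPM in WT and 18.2, 10.8 and 12.2 against 39.3, 18.1 and 34.7 in KO mice. The libraries of mouse 296 were above all others on either side, which overlaps the groups. Blocked, Col6a1 changed by 1.40 ± 0.24 in WT (adjusted p = 0.0046) and 1.12 ± 0.24 in KO mice (0.0232). Col6a2 changed by 1.29 ± 0.14 (0.000979) and 0.96 ± 0.15 (0.0087). Unblocked, neither passed (adjusted p = 0.307 and 0.313 for Col6a1, 0.146 and 0.274 for Col6a2). In WT both passed without library 296 contralateral (0.00864 and 0.0162). Col6a3 did not pass in either fit (0.89 ± 0.44, adjusted p = 0.178, and 1.11 ± 0.46, 0.156). The adjacent genes Col6a4, Col6a5 and Col6a6 on chromosome 9 had values below 0 in both genotypes, from -1.83 (Col6a6, WT) to -0.85 (Col6a5, KO), at 0.31 to 2.55 mean TPM, and none passed.

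Among fibrillar collagens Col2a1 (ENSMUSG00000022483, chromosome 15, 97975602 to 98004695), the collagen of cartilage, had the largest rise that passed. It stood at 4.52, 5.48 and 5.04 CPM in WT contralateral and 12.8, 40.9 and 24.2 in WT ipsilateral libraries (2.37 ± 0.50, adjusted p = 0.00792), and at 4.34, 3.01 and 1.32 against 15.8, 5.42 and 11.3 in KO mice (1.92 ± 0.51, adjusted p = 0.0468). The sides were apart in both genotypes, at levels far below those of Col4a1 and Col4a2. Col2a1 missed the threshold in WT without mouse 297 (adjusted p = 0.091) or 474 (0.0531), and in KO mice in 13 of 18 leave-out fits, the highest adjusted p being 0.338 without mouse 300. The KO call of Col2a1 was also lost with limma-voom (adjusted p = 0.0969), the 2 TPM fits (0.0924 and 0.0812), upper-quartile scaling (0.0555) or no low-count filter (0.0612).

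Col11a2 (ENSMUSG00000024330, chromosome 17, 34039437 to 34066685), a minor fibrillar chain, had the largest fall that passed. It stood at 74.8, 99.2 and 167 CPM in WT contralateral and 32.9, 35.8 and 33.4 in WT ipsilateral libraries (-1.74 ± 0.26, adjusted p = 0.00198; called in 18 of 18 leave-out fits). KO libraries stood at 157, 129.7 and 103 against 63.2, 76.7 and 56.7 CPM (-0.99 ± 0.26, adjusted p = 0.0423), a call lost in 13 of 18 leave-out fits, with 0.302 without mouse 295, and 0.0540 with no low-count filter. Contralateral libraries of WT mice differed by more than 2-fold, and the ipsilateral ones lay close together. Its partner Col11a1 did not pass, at 34.4 and 16.7 CPM in mouse 296 and 2.98 to 8.31 elsewhere.

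Type I collagen is a trimer of Col1a1 (ENSMUSG00000001506, chromosome 11, 94936224 to 94953042) and Col1a2. Col1a1 stood at 43.1, 30.3 and 39.8 CPM in WT contralateral and 12.4, 12.6 and 16.4 in WT ipsilateral libraries and fell (-1.45 ± 0.31, adjusted p = 0.00835). KO mice had 67.4, 43.2 and 43.5 against 66.7, 29.3 and 32.8 CPM, which did not pass (-0.26 ± 0.29, adjusted p = 0.603). Without mouse 296 (adjusted p = 0.0538) or 297 (0.0609) its WT call was lost. Col1a2 stood at 72.4 ± 18.9 against 53.1 ± 4.95 CPM (SD, n = 3 each) in WT and did not pass (-0.45 ± 0.25, adjusted p = 0.23). The TPM ratio of Col1a1 to Col1a2 was 0.848, 0.936 and 1.16 in WT contralateral, 0.485, 0.419 and 0.539 in WT ipsilateral, 1.37, 1.34 and 1.11 in KO contralateral and 1.39, 1.22 and 0.905 in KO ipsilateral libraries, so the WT ipsilateral libraries lay below all others.

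Col3a1, the collagen of vessel walls that accompanies type I, was highest in mouse 295, whose libraries had 23 and 55.5 CPM against 3.47 to 14.0 in the rest. Ipsilateral levels were 2.42, 1.81 and 3.16 times the contralateral ones in KO mice 295, 298 and 300. The KO change of Col3a1 was 1.29 ± 0.81 (adjusted p = 0.324, blocked 0.029). It was -0.080 without library 295 ipsilateral and 2.66 without 295 contralateral, fits that each keep the other library of that mouse. The type V chains, which set the width of fibrils, and Col27a1 did not pass. Col5a3, the most abundant, had 128 ± 36.8 against 122 ± 21.9 CPM in WT.

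The fibril-associated type IX collagen, known from cartilage, is a trimer of Col9a1, Col9a2 and Col9a3, and all 3 were lower ipsilaterally in 6 of 6 mice. Col9a3 (ENSMUSG00000027570, chromosome 2, 180597790 to 180622189) stood at 107, 124 and 146 CPM in WT contralateral and 75, 60.2 and 53.5 in WT ipsilateral libraries (-1.0 ± 0.17, adjusted p = 0.00303, called in 18 of 18 leave-out fits). The KO values were 72.7, 66.7 and 73.8 against 42.1, 55.2 and 40.8 CPM (-0.63 ± 0.17, adjusted p = 0.0482; blocked 0.0504), a call held in 7 of 18 leave-out fits and lost with limma-voom (0.0517) or no low-count filter (0.0565). The opposite-strand gene Tcfl5 covers 6.07% of its exon bases.

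Col9a2 (ENSMUSG00000028626, chromosome 4, 121039385 to 121055322) stood at 12.9, 11.2 and 8.84 against 6.46, 3.95 and 5.79 CPM in WT (-1.02 ± 0.23, adjusted p = 0.0103) and 14.3, 10.9 and 12.7 against 9.7, 8.44 and 8.79 in KO mice (-0.49 ± 0.22, 0.184). Col9a2 missed the threshold without mouse 297 (adjusted p = 0.0996) and in a fit of only these 2 groups (0.0641). Col9a1 stood at 0.473 to 2.13 CPM over the 12 libraries and did not pass. Of other collagens of this class, Col12a1 and Col16a1 were higher ipsilaterally in every mouse and passed in WT when blocked (Col12a1 1.35 ± 0.41, adjusted p = 0.0419; Col16a1 0.77 ± 0.16, 0.00783), and Col16a1 also in KO mice (0.71 ± 0.16, 0.0227). Col14a1 fell when blocked in WT (-1.32 ± 0.37, adjusted p = 0.0267). The 4 transmembrane collagens and the 5 remaining ones (Col7a1, Col8a1, Col8a2, Col26a1 and Col28a1) did not pass in edgeR in either genotype, blocked or not, and of these only 1 transmembrane collagen had an unadjusted p under 0.05, in KO mice.

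Markers of other cells moved alongside in WT mice. Summed over its markers, the pericyte level was 986 to 1277 CPM contralaterally and 670 to 875 ipsilaterally (6 of 10 genes lower by the same test, 0 higher), and the smooth muscle level was 530 to 765 and 247 to 371 (4 of 6 lower). Fibroblast markers summed to 370 to 569 and 339 to 390 (2 of 10 lower) and endothelial ones to 2442 to 3475 and 2222 to 3168 (1 of 16 lower). Astrocyte markers summed to 18473 to 23806 contralaterally and 10643 to 12449 ipsilaterally, with 9 of 12 lower. Blocked, 6 pericyte, 5 smooth muscle, 4 fibroblast and 11 astrocyte markers were lower and 1 astrocyte marker was higher. Of endothelial markers 4 were higher and 5 lower when blocked (14.7% and 15.1% of all genes). Other sums were higher ipsilaterally without overlap. Microglial markers summed to 484 to 510 and 738 to 1120 CPM (0 of 8 called by unblocked edgeR, 3 at an unadjusted p under 0.05, 1 by DESeq2). Only 5 of these 8 had changes above 0 and 3 lay below (median 0.46), and 1 was higher when blocked. Monocyte and macrophage markers summed to 49.2 to 60.3 and 99.5 to 136 (2 of 8 higher, 6 when blocked). Oligodendrocyte precursor markers summed to 221 to 329 and 364 to 468. Of these 5 precursor genes, however, 4 had changes below 0 (median -0.45), and the 1 called, Cspg4, which pericytes also use, was lower. In KO mice unblocked edgeR called no pericyte, smooth muscle, fibroblast or endothelial marker. At an unadjusted p under 0.05 there were 1 of 10, 2 of 6, 1 of 10 and 5 of 16, DESeq2 called 0, 1, 1 and 1, and limma-voom 0. Blocked, 3 endothelial markers were higher and 1 lower (10.9% and 5.10% of all genes). The same fit called 1 pericyte and 1 smooth muscle marker lower and 1 fibroblast marker higher. Endothelial markers had a median change of 0.42, against -0.01 over all genes. The astrocyte sums were 24536 to 29260 and 18742 to 28885 CPM, lower ipsilaterally in each KO mouse. Unblocked, 1 of the 12 astrocyte markers was called, as higher, though 10 had changes below 0 (median -0.29). Blocked, 3 were lower and 1 higher. Of oligodendrocyte markers 2 of 9 were higher (4 when blocked) and of precursor markers 1 of 5 (also 1 when blocked). Choroid plexus and ependymal markers had changes below 0 in 9 of 9 genes in both genotypes (median -0.85 in WT and -0.75 in KO mice). Unblocked edgeR called 0 of these 9 in either, with 5 at an unadjusted p under 0.05 in each, and DESeq2 called 3 and 2. Blocked, 3 were lower in WT and 1 in KO mice. Their WT sums overlapped, at 4466 to 8252 CPM contralaterally and 2968 to 6216 ipsilaterally.

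Library 300 ipsilateral stood apart from the other KO ipsilateral libraries in these sums. Its precursor markers summed to 1190 CPM against 195 and 363, its oligodendrocyte markers to 23422 against 9913 and 10274, and its microglial markers to 312 against 1372 and 1882. It was the highest of the 6 KO libraries in 13 of the 57 genes (22.8%, below the 29.7% of all genes), among them Col4a1, Col4a2, Lama4, Hspg2 and Col18a1. Without it the KO change was 0.95 ± 0.42 for Col4a1 (edgeR adjusted p = 0.293), 0.77 ± 0.45 for Col4a2 (0.419), 0.57 ± 0.22 for Lama4 (0.221), 0.28 ± 0.23 for Hspg2 (0.568) and 0.81 ± 0.35 for Col18a1 (0.281). The 3 genes called in KO mice stood at 1.87 ± 0.57 for Col2a1 (adjusted p = 0.137), -0.91 ± 0.30 for Col11a2 (0.166) and -0.56 ± 0.19 for Col9a3 (0.172). Library 298 ipsilateral was the highest of the 6 in 0 of the 57 genes (12.9% of all genes). Leaving out that library instead gave 1.68 ± 0.42 for Col4a1 (edgeR adjusted p = 0.0261), 1.53 ± 0.45 for Col4a2 (0.047) and 1.73 ± 0.23 for Col18a1 (0.00224). The part of these markers in the changes of the matrix genes was not tested.

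**Figure D4:**
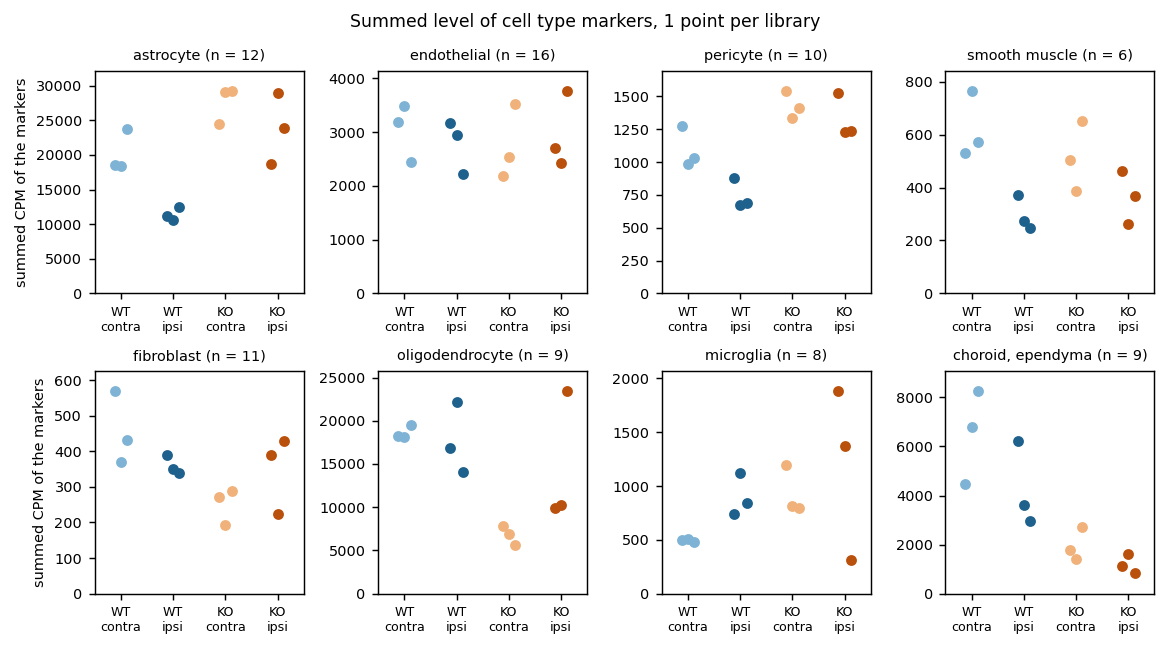
Summed CPM of the markers of 8 cell types, 1 point per library, with the number of genes in each title. Astrocyte, pericyte and smooth muscle sums of the WT ipsilateral libraries lie below those of the WT contralateral ones, and endothelial sums overlap in all groups.

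Whether the response to the occlusion differed between genotypes was tested by the interaction. No gene of the 57 passed (edgeR; 0.00% of all genes tested, also 0 with the mouse as a block), and 2 had an unadjusted p under 0.05. Limma-voom also called 0 of the 57, and DESeq2 0 of the 7 to which it gave an adjusted p. The 2 were Col1a1, with a difference of 1.19 ± 0.42 (KO minus WT, log2; adjusted p = 0.948), and Lamc3 (0.70 ± 0.28, adjusted p = 0.948). The 57 genes had a median difference of 0.09, against 0.06 over all genes. For Hspg2 it was -0.42 ± 0.39, for Col4a1 0.47 ± 0.59 and for Agrn 0.09 ± 0.21, none of which passed. Genes called in WT mice alone, such as Hspg2, Lama4 and Agrn, were not shown to differ in their response.

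On the contralateral side, KO and WT mice were compared to see the effect of genotype and drug away from the lesion, though after the same surgery. Of the 57 genes only Col9a3 was called, lower in KO mice, at 72.7, 66.7 and 73.8 CPM where WT mice had 107, 124 and 146 (-0.82 ± 0.17, adjusted p = 0.0327). That is 1.75% of the 57, where 1.50% of all genes tested were called, 0.0835% higher and 1.41% lower. The groups were apart. The call held in 7 of 18 leave-out fits. It was lost, and with it the count of 1, without any 1 of the contralateral libraries other than 296, without library 295 ipsilateral, or without any 1 mouse other than 296, with adjusted p from 0.0549 to 0.188, and in the 2 TPM fits (0.130 and 0.136). The leave-out fits that lost it called 0.00 to 2.59% of all genes. No gene at all was called without library 298 contralateral, library 300 contralateral or mouse 298. The other 2 chains of its trimer did not pass, with 0.20 ± 0.22 for Col9a2 and 0.69 ± 0.34 for Col9a1. The TPM ratio of Col9a2 to Col9a3 was 0.15, 0.112 and 0.0756 in WT and 0.245, 0.203 and 0.214 in KO contralateral libraries, and 0.107, 0.0817 and 0.135 and 0.287, 0.19 and 0.268 ipsilaterally, so all KO libraries lay above all WT libraries.

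Other contralateral values that did not pass were Agrn, higher in every KO library (0.41 ± 0.15, adjusted p = 0.226), Col4a3, Col4a4 and Col6a3, lower in every KO library (-0.80 ± 0.29, -0.70 ± 0.28 and -1.44 ± 0.46; adjusted p = 0.236, 0.275 and 0.178), and Col8a1, a collagen of vessel linings (-1.30 ± 0.39, 0.152). The groups did not overlap in 14 of 57 genes, 24.6%, and in 24.5% of all genes, 9 of them higher in KO mice (11.0% of all) and 5 lower (13.5%). Oligodendrocyte markers summed to 18079 to 19489 CPM in WT and 5604 to 7857 in KO contralateral libraries (4 of 9 lower), and choroid plexus and ependymal markers to 4466 to 8252 and 1418 to 2709 (1 of 9 lower). Other sums were higher in KO contralateral libraries without overlap. Microglial markers summed to 484 to 510 CPM in WT and 797 to 1192 in KO mice, monocyte and macrophage markers to 49.2 to 60.3 and 101 to 180, pericyte markers to 986 to 1277 and 1334 to 1542, and astrocyte markers to 18473 to 23806 and 24536 to 29260. EdgeR called 0 of these 4 lists' genes, with 3 of 8, 6 of 8, 3 of 10 and 5 of 12 at an unadjusted p under 0.05, and DESeq2 called 0, 3, 1 and 0. Fibroblast, precursor and neuronal sums were lower without overlap, at 370 to 569 and 194 to 290, 221 to 329 and 135 to 173, and 49.1 to 78.9 and 26.7 to 40.3 CPM, with 0 of 10, 0 of 5 and 1 of 7 genes called (2, 2 and 1 at an unadjusted p under 0.05; DESeq2 1, 0 and 1). Their part in the Col9a3 difference was not tested.

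On the ipsilateral side 2 of 57 genes, 3.51%, were called, both higher in KO mice, where 6.31% of all genes tested were called, 4.33% higher and 1.98% lower. Lamc3 stood at 43.2, 35.6 and 30.6 CPM in KO and 24.6, 15.6 and 15.8 in WT ipsilateral libraries (0.97 ± 0.20, adjusted p = 0.0177). Col1a1 stood at 66.7, 29.3 and 32.8 CPM in KO and 12.4, 12.6 and 16.4 in WT ipsilateral libraries (1.63 ± 0.31, adjusted p = 0.0135). Both pairs of groups were apart. Lamc3 missed the threshold without library 297 ipsilateral (adjusted p = 0.0904) or 295 ipsilateral (0.0533), or without mouse 295 (0.105), 297 (0.115) or 298 (0.0819). Col1a1 missed it without library 296 ipsilateral (adjusted p = 0.0522) or 297 ipsilateral (0.0727), or without mouse 297 (0.0994) or 298 (0.0507). In a fit of only these 2 groups neither kept its call (0.0915 and 0.0604) while Col11a2 was called, and the 2 TPM fits lost Lamc3 (0.0599 and 0.0577). The number called was 5 without library 296 contralateral (8.64% of all genes), 0 without mouse 297 or 298 (0.00% each) or library 297 ipsilateral (0.437%), and 1 without library 296 ipsilateral (2.86%), 295 ipsilateral (3.38%) or mouse 295 (0.957%).

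Close to the threshold were Col11a2 (0.95 ± 0.26, adjusted p = 0.0504), Agrn (0.50 ± 0.15, 0.0682) and Col9a2 (0.73 ± 0.23, 0.0809), each higher in all KO than in all WT ipsilateral libraries. These are genes that lay lower ipsilaterally in both genotypes, and the 2 comparisons share the ipsilateral libraries. Col4a1 (-0.17 ± 0.42), Col4a2 (-0.16 ± 0.45), Hspg2 (-0.15 ± 0.28) and Lama4 (0.09 ± 0.26) differed by less than their error. The groups did not overlap in 13 of 57 genes, 22.8%, and in 23.9% of all genes, 9 of them higher in KO mice (13.7% of all) and 4 lower (10.1%). Pericyte markers summed to 1229 to 1529 CPM in KO and 670 to 875 in WT ipsilateral libraries (8 of 10 higher), and astrocyte markers to 18742 to 28885 and 10643 to 12449 (9 of 12 higher). Lower in KO were 2 of 9 oligodendrocyte, 2 of 9 choroid plexus and ependymal, 1 of 7 neuronal and 1 of 8 monocyte and macrophage markers, and 1 of 5 precursor markers, Cspg4, was higher. The neuronal and the monocyte and macrophage call went against most of its list. There 5 of 7 and 6 of 8 changes were above 0 (medians 0.37 and 0.57, against 0.02 over all genes). EdgeR called no fibroblast, endothelial or smooth muscle marker (3, 0 and 1 at an unadjusted p under 0.05, and as many in DESeq2). The part of pericyte and astrocyte RNA in the Lamc3 and Col1a1 differences was not tested.

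Genes that make collagen were read from a list of 33, chosen with earlier results known. In WT mice 4 rose and 5 fell after the occlusion (median 0.08), in KO mice 3 rose and 1 fell (0.14). Of all genes tested, 9.61% rose and 9.54% fell in WT (median -0.06) and 5.45% and 0.841% in KO mice (-0.01). Between genotypes 0.0835% of all genes were higher and 1.41% lower in KO mice contralaterally, and 4.33% and 1.98% ipsilaterally. These shares of all genes stand beside the counts of the next 2 lists as well. P3h3, a collagen prolyl hydroxylase, fell from 97.2 ± 22 to 34.8 ± 4.92 CPM in WT (-1.48 ± 0.18, adjusted p = 0.000898) and by 0.78 ± 0.17 on the log2 scale in KO mice (0.0258). Also lower in WT were Loxl3 (-0.77 ± 0.16), the glycosyltransferase Colgalt2 (-0.79 ± 0.18) and P4ha2 (-0.71 ± 0.18). The crosslinking lysyl oxidases Loxl4 (2.03 ± 0.40, 1.78 ± 0.41 in KO) and Loxl2 (1.66 ± 0.42) rose, as did P4hb (0.67 ± 0.15 and 0.58 ± 0.15), a subunit of the enzyme that hydroxylates collagen proline, and Plod3 (0.49 ± 0.16). Loxl1 rose in KO mice (1.31 ± 0.31). Between genotypes Pcolce2, which enhances the trimming of procollagen, was lower in KO mice on both sides (-1.65 ± 0.30, adjusted p = 0.0209, and -1.63 ± 0.30, 0.0127), the only gene of the list called contralaterally. Ipsilaterally 4 were higher in KO mice, namely Colgalt2 (0.82 ± 0.18), P3h3 (0.82 ± 0.18), Loxl3 (0.66 ± 0.16) and Fkbp10 (0.66 ± 0.17), each of which had fallen ipsilaterally in WT mice, a comparison that shares the WT ipsilateral libraries.

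Of 36 receptors and linkers that bind these proteins 33 were tested, 7 rising and 4 falling in WT (median -0.12) and 3 rising in KO mice (-0.07). Itga5, which with Itgb1 forms the fibronectin receptor, rose from 26.1 ± 11 to 102 ± 22.9 CPM in WT (1.97 ± 0.30) and from 17.8 ± 3.37 to 91.1 ± 23.7 in KO mice (2.36 ± 0.31, adjusted p = 0.00433). Itgb1 rose in both (0.69 ± 0.16 and 0.63 ± 0.16), as did the syndecan Sdc1 (1.69 ± 0.45 and 1.99 ± 0.47). Ddr2, a receptor for fibrillar collagen, rose in WT (1.42 ± 0.28). Of the dystroglycan complex, which anchors endfeet to laminin and agrin, Dag1 (-0.55 ± 0.14) and Dtna (-0.85 ± 0.21) fell in WT, as did the syndecan Sdc2 (-0.79 ± 0.16). Dag1 (0.65 ± 0.14), Sdc2 (0.78 ± 0.16) and Sdc3 (0.95 ± 0.16) were among 5 genes higher in KO ipsilaterally, and Itgb4 was lower (-0.75 ± 0.15). Contralaterally edgeR called 0 of 33, with 11 at an unadjusted p under 0.05, DESeq2 3 and limma-voom 0.

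Of 36 other genes of basement membranes and elastic fibres 34 were tested. In WT mice 3 rose and 6 fell (median -0.32), and in KO mice 2 rose (-0.12). Tgfbi, an integrin ligand induced by TGF-beta, rose from 21.2 ± 6.2 to 139.7 ± 28.2 CPM in WT (2.72 ± 0.32) and from 25.1 ± 10.1 to 107 ± 30.9 in KO mice (2.10 ± 0.31), and periostin, Postn, rose in both (2.36 ± 0.48 and 2.50 ± 0.49). Ecm1 also rose in WT (1.64 ± 0.42). Sparcl1, a secreted protein of astrocytes, fell from 4560.2 ± 516 to 1772 ± 408 CPM in WT (-1.36 ± 0.23), with Fbln1 (-0.89 ± 0.20), Smoc1 (-0.64 ± 0.15) and Mfap2 (-1.24 ± 0.31). On the ipsilateral side 5 were higher in KO mice, including Vtn (1.25 ± 0.22), which is also on the pericyte list, Sparcl1 (1.07 ± 0.23), Smoc1 (0.63 ± 0.15) and Egflam (0.74 ± 0.17), the gene of pikachurin, and Fras1 was lower (-1.48 ± 0.38). Emilin2 was lower in KO mice contralaterally (-1.73 ± 0.32). All changes given for genes of these 3 lists passed at an adjusted p under 0.05 (edgeR, over all genes tested).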

How the data were processed

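The authors deposited 1 table per library, with whole numbers per gene taken here as read counts, TPM and RPKM. Per the submitters' processing notes, genes refer to build mm10. Aligner, counting tool and strand: not given in the sources used here. Ratios of counts to deposited RPKM were constant between libraries within 2% for 34 of 34 of the genes with at least 50 counts in all libraries. Counts were fitted in R 4.3.3 with edgeR 4.0.16 (filterByExpr, minimum count 10, 15571 genes; TMM; robust quasi-likelihood fit of 4 groups over 12 libraries, 8 residual degrees of freedom). P-values were adjusted by Benjamini-Hochberg and called at 0.05. An approximate SE was taken as the size of the log2 fold change over the root of its F statistic. Unblocked p-values measure the spread between the mice of a group and leave out the pairing of sides. Blocked ones measure how the difference between sides varied from mouse to mouse. The unblocked fit was tested on simulated data that held no mouse effect, and the blocked fit was not tested in this way.

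The genes, roles and lists were chosen with earlier results of these data known. Values per library are given for genes called in a comparison, for type IV collagens, laminins and linkers, and for the 3 highest in TPM. Some items, the targeted gene among them, are not reported here by name, though counts of genes include them. Of each related list up to 4 called genes per comparison and direction are named. Hemispheres of 1 mouse were paired by the animal number in the titles. Deviations from group means of the 2 libraries of a mouse correlated at 0.63, 0.02, 0.36, 0.29, 0.35 and 0.16 over 15571 genes for mice 296, 297, 474, 295, 298 and 300. Alternatives were DESeq2 1.42.0, limma-voom and limma-trend (limma 3.58.1) on log2(TPM + 1) or log2(TPM + 0.1), other scalings and filters, no robust estimation, fits of 2 groups, the mouse as a block, and each library or mouse left out. Gene positions are from GENCODE vM21 (mm10).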

Additional observations from a re-analysis of the deposited data

How the results depend on the processing

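The number of the 57 genes called in WT mice was 10, and 23 with the mouse as a replicate block. In brackets here stands the share of all genes called by the same fit. In KO mice it was 3, and 16 with the replicate block (16.0%), 10 with DESeq2 (13.2%), 8 with only the 2 groups compared (11.3%), and 1 with limma-voom (5.17%) or without the low-count filter (3.71%). For KO against WT it was contralaterally 1, and 3 with DESeq2 (4.51%) and 0 with either TPM fit (0.910% and 0.855%), and ipsilaterally 2, and 5 with DESeq2 (11.7%), 1 with either TPM fit (Col1a1; 4.19% and 4.13%) and 1 with only the 2 groups compared (1.06%), which was Col11a2 and neither of the 2. Dropping each library or mouse in turn, these counts ranged over 3 to 20, 0 to 11, 0 to 2 and 0 to 5. The interaction stayed at 0 in all fits run. RLE and upper-quartile scaling and no robust estimation kept each count within 1.5 times. For 43 changes of single genes 1051 of the alternative values kept direction and side of the threshold, 93 gained and 99 lost a call, and 1 changed sign, Col3a1 in KO mice (1.29, with leave-out values from -0.080 without library 295 ipsilateral to 2.66 without 295 contralateral). The TPM fits held 52 of the 57 genes and moved the median of all genes by over 0.1 in KO mice (-0.17 against -0.01), contralaterally between genotypes (0.12 against -0.00) and in the interaction (-0.16 against 0.06). TPM ratios of chains moved by more than 1 SD in 2 leave-out values and kept within it in 160. With 3 mice per group, a change that did not pass is not shown to be absent, and genes near 10 counts, such as Col6a6, Col28a1 and Col9a1, are limited by depth. Which of the alternatives is closest to the truth was not tested.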

Other observations

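Neighbouring genes of the family are given here as values, with no explanation. Within 200 kb of each other lay 8 pairs, which hold 15 genes, and 7 pairs are given here. Both genes of a pair lay on the same side of 0 in WT and KO mice for Col4a1 and Col4a2, Col4a3 and Col4a4, Col6a1 and Col6a2, Col6a5 and Col6a6, and Col6a4 and Col6a5. They did not for Col3a1 and Col5a2 (0.20 and -0.12 in WT, 1.29 and -0.22 in KO mice), nor for Col4a5 and Col4a6 in KO mice (-0.55 and 0.25), whose starts lie the farthest apart of the type IV pairs. None of these genes passed the unblocked test of the sides in either genotype.

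Of the ipsilateral libraries, that of mouse 295 was the highest of 6 in 19 of the 57 genes, 33.3%, and in 11.8% of all genes tested. That of mouse 297 was the highest in 2 of the 57 (3.51%, and 13.8% of all genes). Among contralateral libraries that of mouse 296 was the highest in 14 (24.6%, and 32.7% of all genes). These libraries were singled out after their values were seen, and no test was made.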
